A study of Mus musculus with 12 samples.

Results

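The step from gestation day (GD) 9.0 to GD9.5 in the mouse neural tube was described by comparing messenger RNA levels on 4 GD9.5 arrays with those on 4 GD9.0 arrays. The arrays were chosen by their titles and were 8 of the 12 in the series. Of 45101 probe sets on the array, the 45037 that are no Affymetrix controls were included, and those that name 1 gene gave 18193 genes. The GD9.0 group was neural tubes of ICR (CD-1) embryos taken at GD9.0, and the GD9.5 group was neural tubes of the same outbred stock taken at GD9.5, with the day of the mating plug counted as day 0. No treatment or mutation is named for either group. Neural tubes were micro-dissected and 100 ng of total RNA per sample was labelled for Affymetrix Mouse Genome 430 2.0 arrays. Replicates are called biological in the labels, but whether each holds 1 embryo, a litter or a pool is not said and sex is not given, so the p-values measure the spread between these arrays. The stated aim of the study was to find messages with constant and with changing levels in the developing neural tube. GD8.5 replicates 3 and 4, deposited on the same log2 scale, entered the fit for its estimate of the spread and for the comparison of the intervals at the end.

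At these stages the neural plate has folded and closes into a tube, whose wall is a layer of dividing neuroepithelial progenitors. Some progenitors leave the cell cycle and become the first neurons, a step driven by basic helix-loop-helix factors and held back in neighbouring cells by Notch signalling and its Hes targets. Roof plate and floor plate send BMP, Wnt and Hedgehog signals that divide the wall into domains, while the crest cells leave its dorsal edge. Surface ectoderm, mesenchyme, heart, yolk sac and blood lie close by and can be carried into a dissection.

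Levels below are the deposited log2 values, on which a difference of 1 is a 2-fold change. Changes are GD9.5 minus GD9.0 with the standard error (SE) of the limma fit, n = 4 arrays per stage. A gene is said to have risen or fallen where limma's moderated test gave a Benjamini-Hochberg adjusted p under 0.05 over all 18193 genes. By this rule 4429 genes (24.3%) changed, 2561 (14.1%) upwards and 1868 (10.3%) downwards, and these shares are the background for every count that follows. The median change over all genes was -0.0077. The balance of directions moved with the scaling, from 57.8% of calls upwards to 37.5% when each array was centred on its median (1906 up, 3177 down) and 47.9% when the arrays were quantile normalized once more. In a fit of all 12 arrays, after the linear GD8.5 values had been put on a log2 scale, 1259 genes rose and 1036 fell. The GD8.5 arrays it adds enter this comparison only through the common normalization and the shared estimate of the spread. Of the 4429 calls, 2285 were kept in the same direction in that fit and 0 turned sign, but it uses the same GD9.0 and GD9.5 arrays. Other choices of probe sets did turn signs. Averaging all probe sets per gene turned 95 of the 4429 calls. Leaving out probe sets shared between transcripts turned 56 of the 4371 calls that could be tested. Changes of at least 2-fold were called for 222 genes (1.22%), of which 168 (0.923%) rose and 54 (0.297%) fell. The arrays of both stages did not overlap for 4912 genes (27%). Of the 45037 probe sets, 7667 (17%) were called, 4020 (8.93%) upwards and 3647 (8.1%) downwards, and of the 9160 with no gene in the annotation 763 (8.33%) were called, 233 (2.54%) upwards and 530 (5.79%) downwards. A background level of 1.42, under which 95% of 39 olfactory receptor genes lay, marks where a level is only a bound. Among the 13323 genes above it at either stage 19% rose and 13.6% fell. Lists made mostly of such genes are to be read beside these larger shares too.

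Array-wide measures differed between the stages and are given once. The stages lay apart on principal component 1, which took up 62.7% of the variance. Over 9 neural tube markers the mean level was 6.54 to 6.58 in the GD9.0 arrays and 7.2 to 7.24 in the GD9.5 arrays, and over 5 neuron markers it was 3.31 to 3.40 and 5.06 to 5.22, so the labelled tissue was represented at both stages. Markers of other tissues moved as well. The 4 cardiac markers lay at 3.86 to 4.07 and then at 1.59 to 1.68, the 4 yolk sac markers at 4.45 to 4.6 and then at 1.57 to 1.66, and the 4 surface ectoderm markers at 6.62 to 6.76 and then at 5.68 to 5.79. The 4 erythroid markers went the other way, from 7.19 to 7.26 up to 7.99 to 8.18. The mean of the 3 megakaryocyte markers went from 2.30 to 2.46 up to 3.22 to 3.53. In that mean Pf4 rose strongly and Itga2b did not pass, as given with the blood genes below. The 3 endothelial markers lay at 2.96 to 3.05 and 2.94 to 3.04, and the 4 mesenchyme markers at 6.46 to 6.52 and 6.52 to 6.62. The 18S ribosomal RNA control probe sets stood at 8.81 ± 0.18 (SD, n = 4) and 10.3 ± 0.09. The excess of 3' over 5' signal, which is larger where RNA is shorter, stood at 0.563 ± 0.026 and 0.932 ± 0.026 on the actin controls. On the Gapdh controls it stood at -0.001 ± 0.013 and 0.049 ± 0.028. Each was higher at GD9.5 (p = 0.0286 for each in a two-sided exact permutation test, which cannot give less with 4 arrays per stage), and their part in the results was not tested. In bulk tissue, fewer cells of a type and less RNA per cell cannot be told apart.

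**Figure D1:**
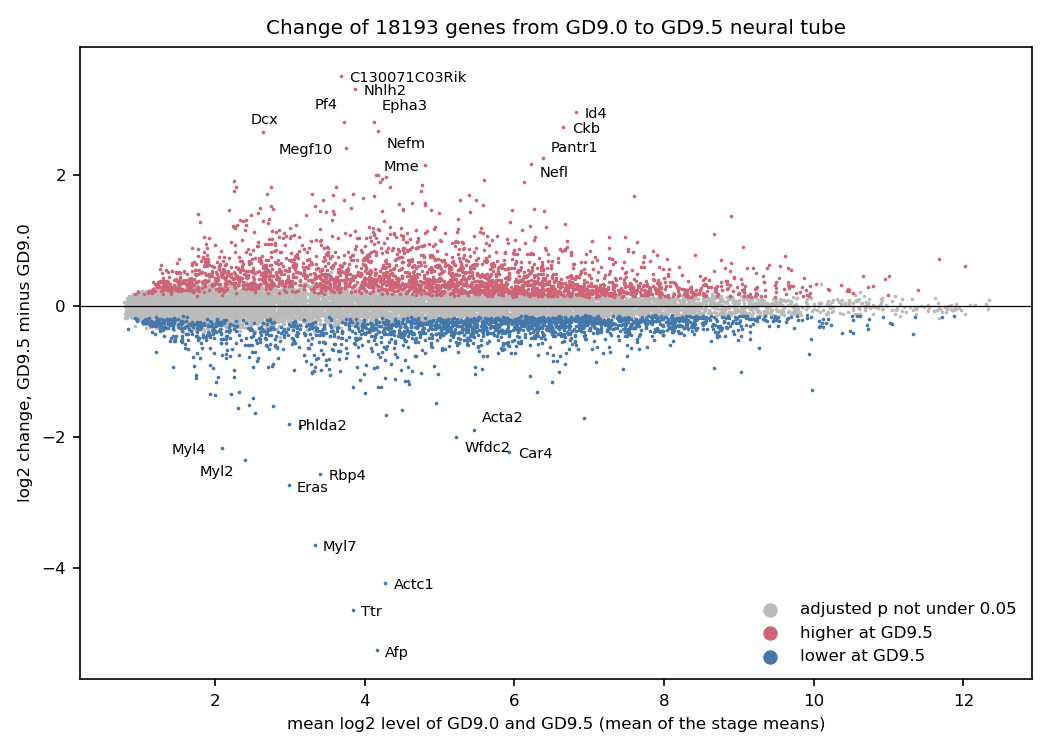
Log2 change from GD9.0 to GD9.5 (vertical axis) against the mean log2 level of both stages (horizontal axis) for 18193 genes, with genes that passed the test in colour and the 12 largest rises and falls named. Afp lies lowest at -5.26 and C130071C03Rik highest at 3.52.

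The largest rise belonged to a noncoding transcript. C130071C03Rik is a long noncoding RNA on chromosome 13, and the hairpin of the microRNA gene Mir9-2 lies inside it on the same strand, in the RefSeq annotation of GRCm38.p6. Its levels were 2.12, 1.87, 1.87 and 1.83 at GD9.0 and 5.42, 5.48, 5.33 and 5.55 at GD9.5. The lowest GD9.5 array stood far above the highest GD9.0 array, the change was 3.52 ± 0.08 (adjusted p = 2.55e-10), and 3 of 4 probe sets passed. miR-9 is a microRNA of the embryonic nervous system that acts in progenitors and young neurons. The arrays measured host transcripts and not mature microRNAs. Gm3764, which holds Mir9-1, did not pass (-0.05 ± 0.11), and Mir9-3hg is given below. The mature miR-9 sequence, shown because C130071C03Rik is the message that rose most, has its seed (bases 2 to 8) in capitals:
mmu-miR-9-5p: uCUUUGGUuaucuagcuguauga

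Some other transcripts that carry microRNAs also moved, a group looked up after the values had been seen. Of 1005 microRNA hairpins in the RefSeq table, 523 lay inside a tested gene on its strand. These gave 464 host genes, of which 101 (21.8%) rose and 53 (11.4%) fell, beside 14.1% and 10.3% of all genes, and their median change was 0.024. Among genes above the background at either stage the shares were 19% and 13.6%. The guidance ligand gene Slit2, host of Mir218-1, rose by 1.03 ± 0.05, while Slit3, host of Mir218-2, did not pass (-0.04 ± 0.09). Srebf2, host of Mir33 and the master regulator of sterol synthesis, rose by 1.00 ± 0.07 (1 of 2 probe sets). Astn1, a neuronal adhesion gene and host of Mir488, rose by 1.2 ± 0.13. The cardiac myosin genes Myh6 and Myh7, hosts of Mir208a and Mir208b, fell as well. Myh6 (called in 1 of 2 probe sets) ended under the background, a drop of at least 1.6-fold, and Myh7 changed by -1.53 ± 0.05. The noncoding gene 2610318N02Rik, host of Mir301b and Mir130b, fell by 0.53 on the log2 scale. Among the sequences printed next, both cardiac microRNAs share 1 seed and the others differ:
mmu-miR-218-5p: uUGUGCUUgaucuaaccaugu
mmu-miR-33-5p: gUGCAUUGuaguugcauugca
mmu-miR-208a-3p: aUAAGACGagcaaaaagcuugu
mmu-miR-208b-3p: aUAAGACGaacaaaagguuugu
Capitals again mark the seed. Among 8 transcripts named in the annotation as microRNA host genes, 3 rose and 1 was called lower. Mir99ahg went from 1.68 to 2.87 (change 1.19 ± 0.12) and Mir124-2hg from 5.59 to 6.39 (0.80 ± 0.08), while Mir9-3hg (0.39 ± 0.09) lost its call in the fit of 12 arrays. Mir155hg, the 1 called lower, was under the background at both stages (1.07 and 0.85), so no fold is given, and its call was lost in that fit, without 1 array and with the replicate number as a block. The other 4 did not pass.

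Most of the listed genes that start neuron production rose. Of 34 measured neurogenic transcription factors, 21 (61.8%) rose and none fell, with 1 lower at an unadjusted p under 0.05 in limma, and their median change was 0.46. With each array centred, and also after repeated quantile normalization, 20 rose and 1 fell. The largest rise was that of Nhlh2, which encodes a helix-loop-helix factor made in newborn neurons, with levels of 2.26, 2.11, 2.25 and 2.24 at GD9.0 and 5.58, 5.57, 5.42 and 5.55 at GD9.5. The GD9.5 arrays lay more than 3 units above the GD9.0 arrays, a change of 3.32 ± 0.06 (adjusted p = 1.03e-10). Insm1, a zinc finger factor that moves progenitors towards differentiation, had levels of 3.12, 3.27, 3.22 and 3.41 at GD9.0 and 5.29, 4.94, 5.16 and 5.22 at GD9.5, again without overlap (1.90 ± 0.08). Neurod4, a basic helix-loop-helix factor downstream of the neurogenins, rose by 1.71 ± 0.10 (2 of 3 probe sets). St18, a zinc finger factor of the Myt1 family, had levels of 1.40, 1.39, 1.26 and 1.40 at GD9.0 and 2.66, 2.72, 3.79 and 3.58 at GD9.5. Its GD9.0 mean lay under the background, so it was at least 3.4-fold higher at GD9.5, with a wide spread there. Sox12 did not pass and stood at 4.73 and 4.80. The promoter of Nhlh2, printed because it led the group, holds 1 CAGATG, an E-box hexamer of the kind these factors can bind, from base -127 to -122 before the start:
Nhlh2, GRCm38.p6 chr3:102009895-102010144, plus strand: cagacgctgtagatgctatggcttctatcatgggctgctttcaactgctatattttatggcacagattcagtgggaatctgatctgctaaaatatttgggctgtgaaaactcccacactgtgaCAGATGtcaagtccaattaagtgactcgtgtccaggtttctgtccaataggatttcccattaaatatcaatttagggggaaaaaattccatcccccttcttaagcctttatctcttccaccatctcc
CAGATG occurred, on either strand, in 14.5% of 27025 RefSeq promoters of the same 250 bases, and in 2 of the 19 promoters looked at among the 24 largest changes, those of Nhlh2 and Myl2. CAGCTG, another E-box, occurred in 12.8% of all and in 4 of these, among them C130071C03Rik. The match is a description of the sequence and not of binding.

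Most of the listed structural genes of young neurons rose over the same interval. In the list of neuron cytoskeleton and surface genes, 28 of 42 (66.7%) rose and 2 fell, with a median change of 0.65. Dcx, doublecortin, which binds microtubules in migrating neurons, had levels of 1.23, 1.21, 1.35 and 1.45 at GD9.0 and 4.03, 3.69, 4.13 and 4.05 at GD9.5. All GD9.0 arrays lay near the background and all GD9.5 arrays far above it, at least 5.9-fold higher (2 of 4 probe sets). The neurofilament gene Nefl had levels of 5.19, 5.01, 5.22 and 5.16 at GD9.0 and 7.27, 7.27, 7.31 and 7.42 at GD9.5, and its partner Nefm rose by 2.67 ± 0.08. Stmn3, a stathmin that destabilises microtubules, rose by 1.93 ± 0.10. The third neurofilament gene, Nefh, which is known for appearing late in axons, fell by 0.24 on the log2 scale, a call lost in the fit of 12 arrays, and Nrcam did not pass (-0.11 ± 0.06).

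**Figure D2:**
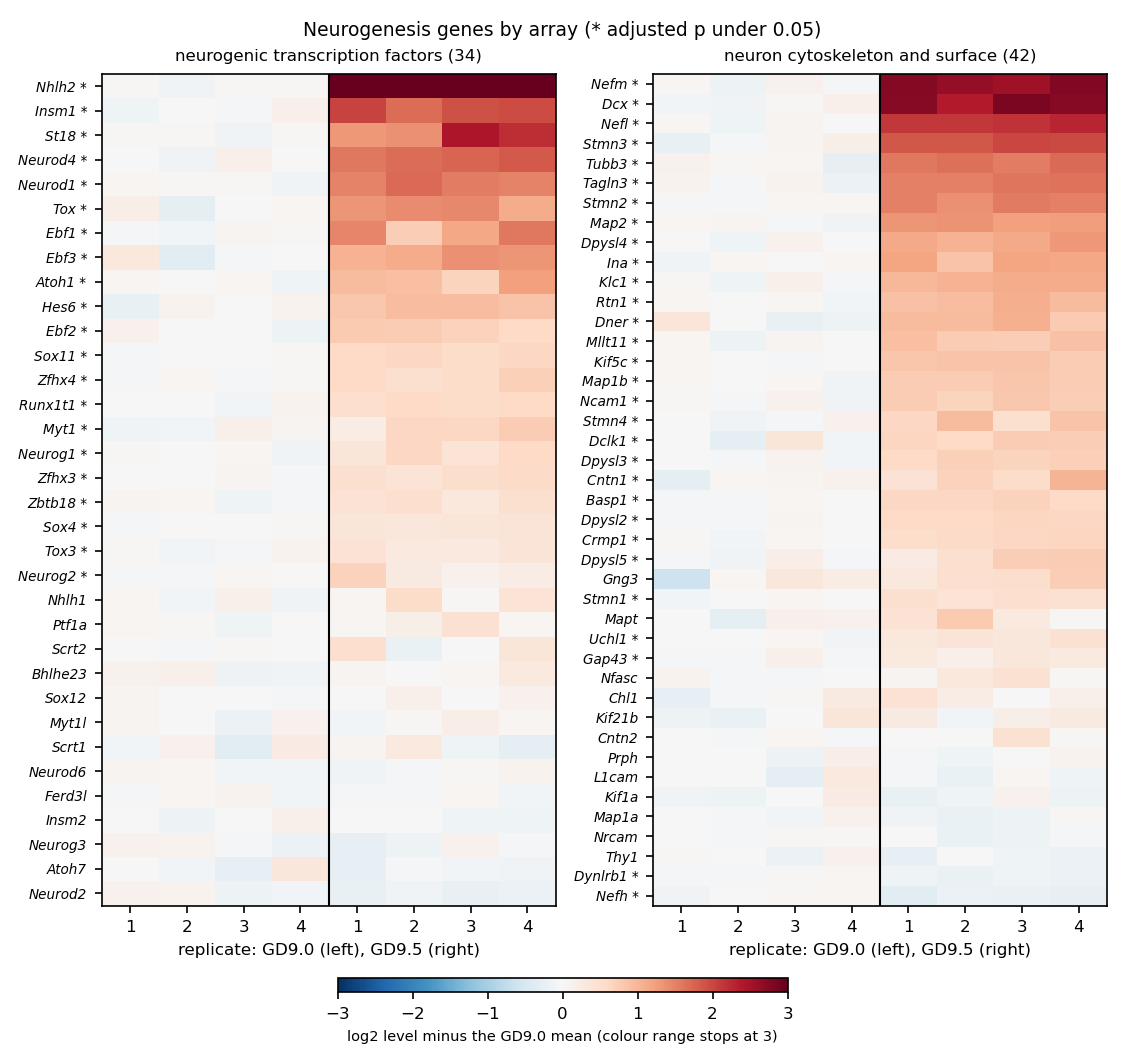
Level of each measured member of the neurogenic transcription factor list (34) and the neuron cytoskeleton and surface list (42) in the 4 GD9.0 and 4 GD9.5 arrays, as the log2 level minus the GD9.0 mean, with an asterisk where the gene passed the test. Nhlh2 and Nefm lead their lists at 3.32 and 2.67, and Nefh is lowest at -0.24.

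Genes of later neuron functions changed in smaller shares. Of 45 synapse, vesicle and excitability genes 12 (26.7%) rose and 1 fell, with a median of 0.08. Only 30 of the 45 had a stage mean above the background, and their median level at GD9.0, over all 45, was 1.42. Slc17a6, the vesicular glutamate transporter VGLUT2, was at least 2.1-fold higher, and the secretory granule genes Scg3 and Chgb rose, Scg3 by 1.44 ± 0.09 and Chgb to at least 1.9-fold. Snap25, a membrane fusion protein, was at 0.75 ± 0.11, a call lost in the fit of 12 arrays. The adhesion gene Nlgn1 was under the background at both stages (1.19 and 0.97), and its call was lost in that fit and without 1 array. Of 37 factors that mark neuron subtypes, 9 (24.3%) rose and none fell, with 1 lower at an unadjusted p under 0.05 in limma and 2 called lower with each array centred. Only 27 of the 37 had a stage mean above the background. Pou4f1, a factor of sensory neurons, had levels of 2.05, 2.13, 1.87 and 2.22 at GD9.0 and 3.27, 3.30, 3.21 and 3.58 at GD9.5. Onecut2 rose by 1.41 ± 0.06, Foxp2 by 1.04 ± 0.12 and Isl1, a factor of motor and sensory neurons, by 0.94 ± 0.06. Of 27 members of neurotrophin, GDNF and chemokine systems 5 rose and 4 fell, against 4 and 6 with each array centred. The rises included the receptor genes Ntrk2 (0.96 ± 0.13, 2 of 8 probe sets), Ackr3 (0.96 ± 0.09), Gfra1 (0.73 ± 0.07) and Cxcr4 (0.64 ± 0.06), and the falls included Erbb3 (-0.94 ± 0.08) and Kit (-0.41 ± 0.10). With the mean of each gene's probe sets 3 of this list rose.

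Of 44 neural progenitor and radial glia genes 31 (70.5%) rose, the largest share among the 54 lists, and 1 fell, with a median of 0.44. Ckb, brain creatine kinase, had levels of 5.32, 5.35, 5.25 and 5.22 at GD9.0 and 8.06, 8.04, 8.07 and 7.94 at GD9.5. Its GD9.5 arrays were more than 2 units above its GD9.0 arrays (2.74 ± 0.06). Pou3f3, which encodes a POU factor, and Pantr1, the noncoding gene next to it on chromosome 1, rose by 1.90 ± 0.06 (1 of 2 probe sets) and 2.26 ± 0.06. Gpm6a, a membrane glycoprotein of neural cells, rose by 1.85 ± 0.15. Hopx, a small homeodomain protein, was the member that fell (-1.02 ± 0.10), and the fatty acid binding protein Fabp5 did not pass at 11 and 11.09.

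Megf10, an engulfment receptor gene of glia, and Mme, the membrane peptidase neprilysin, were also among the 12 largest rises, at 2.42 ± 0.06 and 2.16 ± 0.12 (1 of 2 probe sets), and belonged to none of the lists.

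**Figure D3:**
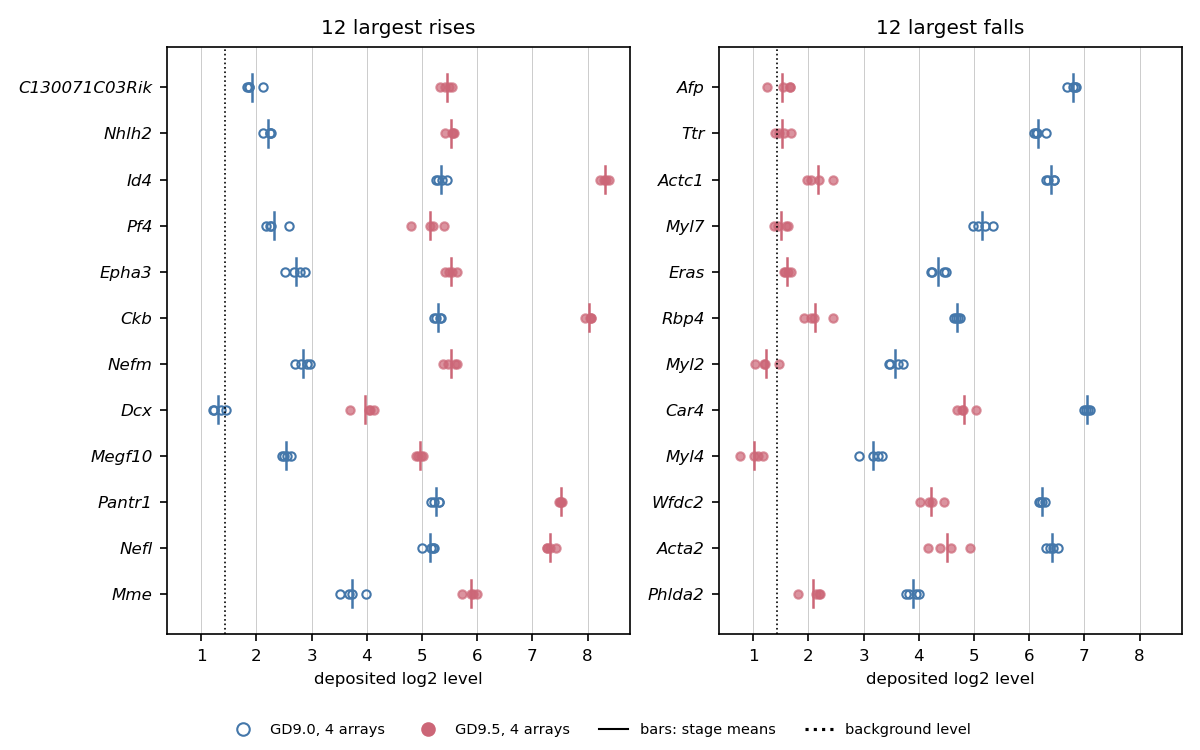
Log2 level in each of the 4 GD9.0 arrays (open circles) and 4 GD9.5 arrays (filled circles) for the 12 largest rises and 12 largest falls, with bars at the stage means and a dotted line at the background level of 1.42. No gene shown has overlapping arrays, and Dcx at GD9.0 and Myl2 and Myl4 at GD9.5 have means under the dotted line.

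In the Notch pathway 16 of 35 genes (45.7%) rose and 3 fell, with a median of 0.20 and 5 lower with each array centred. Hes5, a Notch target that keeps progenitors undifferentiated, had levels of 4.93, 4.92, 5.01 and 5.02 at GD9.0 and 6.07, 6.01, 6.17 and 6.17 at GD9.5, and Nrarp, a feedback inhibitor of the pathway, rose by 1.06 ± 0.05. Notch4, a receptor known from endothelium, rose by 1.08 ± 0.11 (1 of 3 probe sets), while the ligand gene Dll3 was at 1.01 ± 0.11, a call lost in the fit of 12 arrays. The ligand gene Jag1 (-0.44 ± 0.06) and Hes1 (-0.35 ± 0.06), the Hes gene of undifferentiated cells, fell.

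In the BMP and TGF-beta pathway 16 of 46 genes (34.8%) rose and 8 (17.4%) fell, and 10 rose in the fit of 12 arrays. Id4, a BMP target whose protein blocks helix-loop-helix factors, was the largest rise of a protein-coding gene after Nhlh2, with levels of 5.46, 5.26, 5.29 and 5.37 at GD9.0 and 8.3, 8.23, 8.33 and 8.39 at GD9.5. Its relative Id1 moved the other way (-0.64 ± 0.06) and Id2 did not pass (8.79 and 8.79). Among receptors Bmpr1b rose by 0.76 ± 0.09 and Bmpr2 by 0.59 ± 0.06, each in 1 of 3 probe sets. Among ligands Bmp6 rose (0.55 ± 0.11), while Bmp2 had levels of 3.26, 3.20, 3.14 and 3.24 at GD9.0 and 1.85, 1.39, 1.86 and 1.72 at GD9.5, a fall of 1.5 on the log2 scale, and Bmp5 fell by 0.58 on that scale. Bmper, a secreted modulator of BMPs, fell by 0.98 on that scale.

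Of 57 Wnt signalling genes 22 (38.6%) rose and 8 (14%) fell, with a median of 0.12, and 11 rose in the fit of 12 arrays. Rspo3, a secreted enhancer of Wnt signalling made by the roof plate, had levels of 4.51, 4.56, 4.51 and 4.62 at GD9.0 and 6.17, 6.19, 6.26 and 6.36 at GD9.5 (1 of 2 probe sets). Its relatives Rspo1 and Rspo2 rose by 0.79 ± 0.07 and 0.92 ± 0.09, and the receptor gene Fzd10 by 0.98 ± 0.08. The receptor gene Fzd5, known from the eye field and forebrain, fell by 1.13 on the log2 scale, and the secreted antagonists Dkk1 (-0.96 ± 0.06) and Frzb (-0.52 ± 0.07) fell too. Ctnnb1, the central transducer, did not pass at 10.85 and 10.97. In the FGF list 11 of 33 (33.3%) rose and 1 fell. The secreted carrier gene Fgfbp3 rose by 1.46 ± 0.08, the receptor gene Fgfr3 by 1.01 ± 0.08 and the feedback inhibitor Spry1 by 0.71 ± 0.07, Flrt3 fell by 0.65 on the log2 scale, and the target Dusp6 did not pass (0.13 ± 0.05). In the Hedgehog list 6 of 22 rose, 3 of 22 in the fit of 12 arrays, and 1 fell. The co-receptor gene Boc rose by 0.75 ± 0.08, and the target gene Gli1 was at 0.45 ± 0.13 with overlapping arrays, a call lost with the replicate number as a block and without 1 array. The secretion factor gene Scube2 was at -0.34 ± 0.07, lost in the fit of 12 arrays, and the receptor and target Ptch1 stood at 7.58 and 7.57. In the retinoic acid list 5 of 19 rose, 2 of 19 in the fit of 12 arrays, and 2 fell. Its largest change was the fall of Rbp4, the plasma carrier of retinol and also a yolk sac product, by 2.57 on the log2 scale. The receptor gene Rarb (0.44 ± 0.11) and the degrading enzyme gene Cyp26b1 (0.46 ± 0.09) lost their calls in the fit of 12 arrays.

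Factors of the dorsal wall and roof plate rose in 14 of 23 cases (60.9%) and fell in 2, with a median of 0.44. Olig3, a factor of dorsal progenitors, had levels of 1.88, 1.66, 1.87 and 1.88 at GD9.0 and 2.91, 3.09, 2.73 and 3.19 at GD9.5, with 1 GD9.0 array below the other 3. Msx3, a homeobox factor of the dorsal neural tube, rose by 1.06 ± 0.08, and Zic4, a zinc finger factor of the same region, by 1.48 ± 0.15. Dlx5, a homeobox factor of the neural plate border and its ectoderm, fell by 0.56 on the log2 scale, and Zic2 was at -0.21 ± 0.06, a call lost in the fit of 12 arrays and without 1 array. Factors of ventral and intermediate domains split, with 7 of 22 (31.8%) higher and 4 lower. Dbx1, which marks an intermediate progenitor domain, had levels of 3.78, 4.06, 3.76 and 3.92 at GD9.0 and 5.50, 5.60, 5.70 and 5.73 at GD9.5. Prdm16 rose by 1.53 ± 0.11 (2 of 4 probe sets) and Lmo1 by 0.76 ± 0.09. The floor plate factors Foxa1 and Foxa2 fell, by 0.34 and 0.38 on the log2 scale, and Nkx2-9, also ventral, was at -0.39 ± 0.09, lost in the fit of 12 arrays.

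Along the head-to-tail axis each regional list held rises and falls, except that of the Hox genes. Of 32 forebrain and midbrain factors 9 (28.1%) rose and 7 (21.9%) fell. Fezf2, a zinc finger factor of the forebrain, had levels of 2.82, 2.60, 2.56 and 2.72 at GD9.0 and 4.17, 4.01, 4.07 and 4.25 at GD9.5. En2, a homeobox factor of the midbrain and hindbrain junction, rose by 0.85 ± 0.06, Emx2, of the dorsal forebrain, by 0.71 ± 0.09 and Nr2e1, a nuclear receptor of forebrain progenitors, by 0.77 ± 0.10. The falls included Six6 (-0.84 ± 0.08) and Hesx1 (-0.64 ± 0.06), factors of the eye field and early anterior plate, and Dmrta1 (-0.92 ± 0.13), while the eye field factor Rax was at -0.58 ± 0.17, lost in the fit of 12 arrays and without 1 array. Of 14 hindbrain factors 4 rose and 3 fell, against 4 and 5 with each array centred. Egr2, also called Krox20, a factor of hindbrain segments, had levels of 1.84, 1.94, 2.01 and 1.82 at GD9.0 and 0.95, 0.85, 1.16 and 0.98 at GD9.5 and ended under the background, at least 1.4-fold lower. Meis1, a Hox cofactor (0.39 ± 0.07), and Sema3d (-0.34 ± 0.09) lost their calls in the fit of 12 arrays. Of 25 caudal progenitor and streak factors 4 rose and 2 fell, with Fgf17 at 0.58 ± 0.08 and the falls Sp5 (-0.44 ± 0.07) and Fst (-0.36 ± 0.08). Of 28 Hox genes none rose and none fell in limma, with 4 lower and 0 higher at an unadjusted p under 0.05, but 3 were called lower with each array centred and 1 after repeated quantile normalization. Hoxb2, the brightest of them, had levels of 3.86, 4.06, 3.94 and 3.68 at GD9.0 and 3.56, 3.82, 3.79 and 3.76 at GD9.5, with overlap between the stages. Only 13 of the 28 had a mean level above the background.

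Several genes of the early embryo fell. Among 35 genes of pluripotency and the epiblast 7 (20%) moved down and 1 rose, and 11 fell with each array centred. Eras, an Ras protein of embryonic stem cells, had levels of 4.46, 4.24, 4.49 and 4.22 at GD9.0 and 1.58, 1.56, 1.63 and 1.69 at GD9.5. All GD9.5 arrays were close to the background, a fall of 2.74 on the log2 scale. Dnmt3b, a DNA methyltransferase of the epiblast, fell by 0.69 and Slc7a3, a cationic amino acid transporter, by 0.83 on that scale with overlapping arrays, while Phc1 was at 0.19 ± 0.06, a call lost when arrays were centred, in the fit of 12 arrays and without 1 array. In the list of the Lin28 and let-7 axis with the microRNA machinery 10 of 28 (35.7%) rose and 9 (32.1%) fell, with 4 and 5 in the fit of 12 arrays and 7 and 9 with each array centred. The larger direction also turned without GD9.0 replicate 1 or GD9.5 replicate 4. Lin28 is an RNA-binding protein that blocks maturation of let-7, a microRNA whose seed is shared across its family:
mmu-let-7a-5p: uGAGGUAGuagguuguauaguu
mmu-let-7c-5p: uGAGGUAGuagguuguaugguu
Lin28a had levels of 7.07, 7.04, 7.19 and 7.03 at GD9.0 and 5.86, 6.04, 5.75 and 6.06 at GD9.5 in the brightest of 2 probe sets, both of which passed, a fall of 1.16 on the log2 scale. Nr6a1, a nuclear receptor gene of the early embryo, had levels of 7.87, 7.82, 7.76 and 7.70 at GD9.0 and 6.01, 6.10, 6.10 and 6.12 at GD9.5, a fall of 1.71 on the log2 scale in 4 of 5 probe sets. Prtg, protogenin, a surface receptor of early neural tissue, fell by 1.01 and Arid3b by 0.57 on that scale. Ago1, an Argonaute that holds microRNAs, rose by 0.78 ± 0.07 and Ccnd2, a G1 cyclin, by 0.58 ± 0.05 in all 7 probe sets. Whether the mature let-7 level changed was not measured here.

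**Figure D4:**
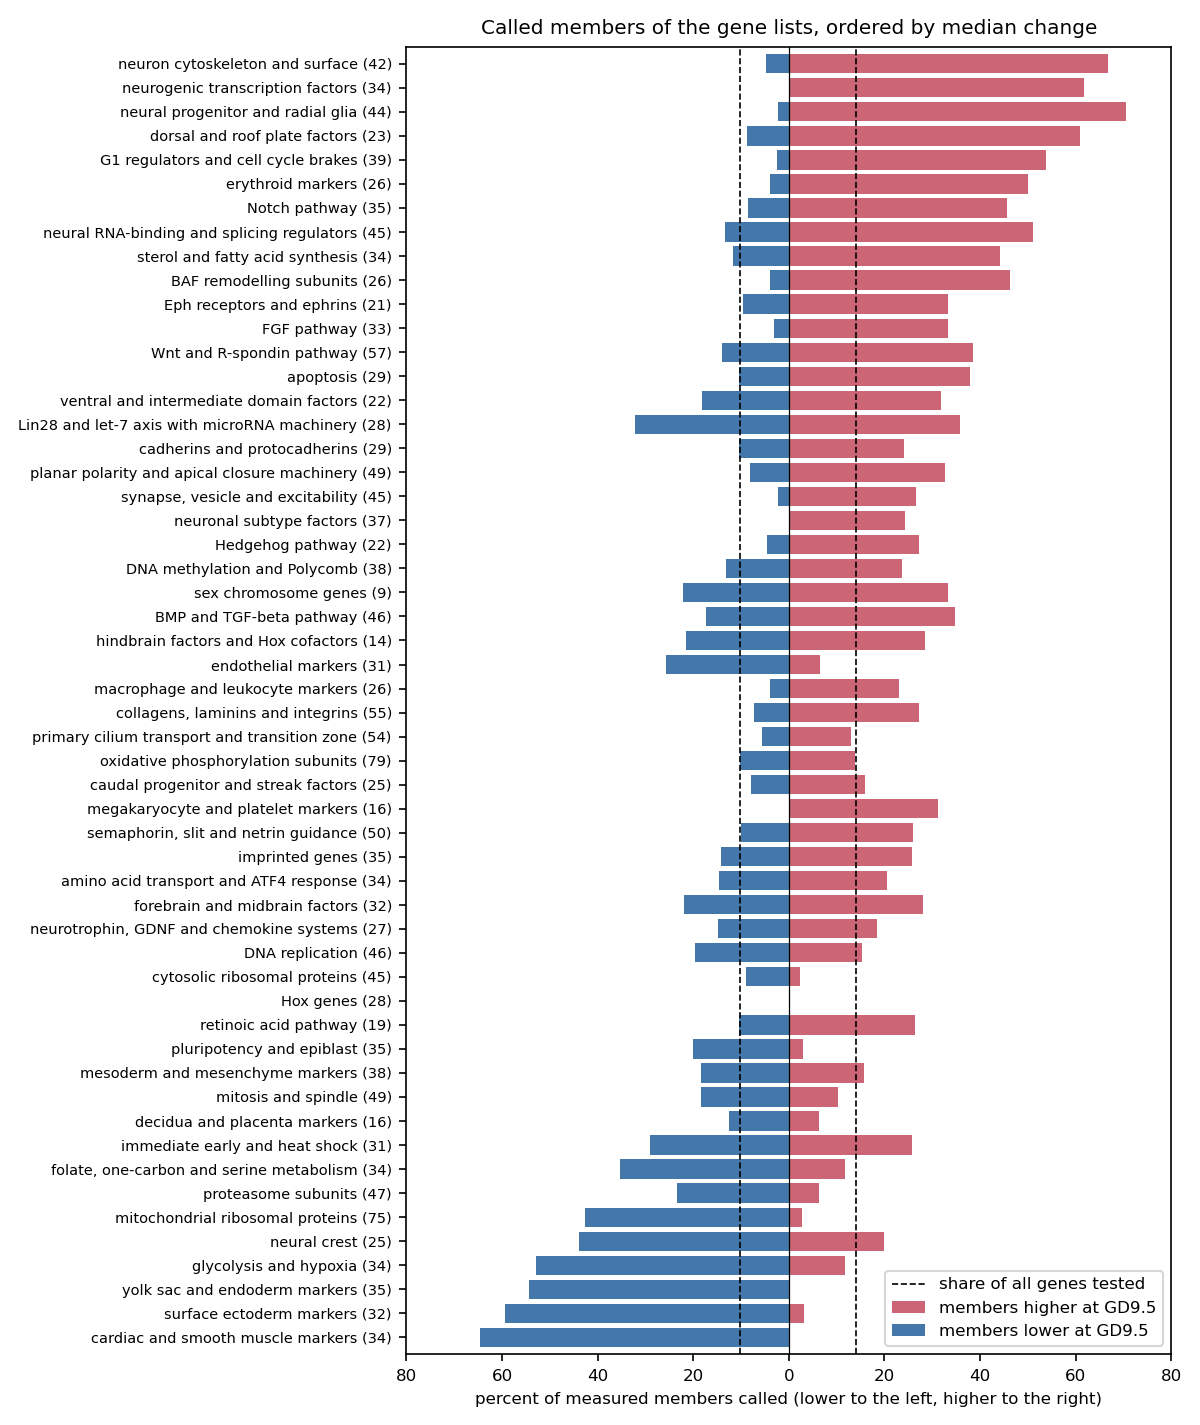
Percent of measured members of each of 54 gene lists that rose (bars to the right) or fell (bars to the left) from GD9.0 to GD9.5, ordered by the median change, with the number measured in brackets and dashed lines at the shares over all genes, 14.1% and 10.3%. Progenitor genes reach 70.5% higher and cardiac and smooth muscle markers 64.7% lower.

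RNA processing and chromatin genes moved in part. Of 45 neural RNA-binding and splicing regulators 23 (51.1%) rose and 6 fell, with a median of 0.19, and 15 rose in the fit of 12 arrays. Elavl4, the neuronal RNA-binding protein HuD, had levels of 4.85, 4.66, 4.54 and 4.66 at GD9.0 and 6.23, 6.38, 6.24 and 6.36 at GD9.5. Msi1, Musashi1 of neural progenitors, rose by 1.08 ± 0.05 (1 of 3 probe sets), and Mbnl3 and Pcbp3 by 0.95 ± 0.08 and 0.85 ± 0.06. Esrp1, the splicing regulator of epithelial cells, had levels of 5.14, 4.89, 4.99 and 5.14 at GD9.0 and 3.97, 4.32, 4.07 and 4.08 at GD9.5 and fell by 0.93 on the log2 scale. Ptbp1, which represses neuronal exons, fell by 0.27 on that scale in 1 of 3 probe sets, and Rbpms and Rbms1 by 0.38 and 0.33. Of 26 subunits of the BAF chromatin remodelling complex 12 (46.2%) rose and 1 fell, with 7 higher in the fit of 12 arrays and 4 lower with each array centred. Smarce1 rose by 0.76 ± 0.05, Smarcd3, a subunit of heart and neuron complexes, by 0.94 ± 0.16 and Smarcc2 by 0.63 ± 0.07, while Smarca2 was at -0.30 ± 0.07, lost in the fit of 12 arrays. Of 38 DNA methylation and Polycomb genes 9 rose and 5 fell, with 4 and 2 in the fit of 12 arrays, 5 and 6 with each array centred, and 3 lower without any 1 of 4 arrays (GD9.0 replicates 2 and 4, GD9.5 replicates 2 and 4). Bmi1 and Phc2 rose by 0.50 ± 0.06 and 0.49 ± 0.06, Mtf2 fell by 0.33 on the log2 scale and Uhrf1, which guides maintenance methylation, did not pass (0.10 ± 0.05).

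Of 39 G1 regulators and brakes of the cell cycle 21 (53.8%) rose and 1 fell, with a median of 0.24, and 3 fell with each array centred. Btg2, which slows proliferation and marks neuron-producing divisions, had levels of 3.96, 3.85, 3.84 and 3.74 at GD9.0 and 5.48, 5.15, 5.58 and 5.47 at GD9.5, and Cdk6, a G1 kinase, rose by 1.43 ± 0.06. Gadd45g, a growth arrest gene of newborn neurons, rose by 1.17 ± 0.13 and the imprinted inhibitor Cdkn1c by 1.06 ± 0.06. Mdm2 was at -0.32 ± 0.07, lost in the fit of 12 arrays, and Cdk4 did not pass (9.21 and 9.26). Of 46 DNA replication genes 7 rose and 9 fell, with 5 lower in the fit of 12 arrays and without GD9.0 replicate 3 or GD9.5 replicate 1, and 12 higher with an intensity trend. The larger direction turned without any 1 of 7 of the 8 GD9.0 and GD9.5 arrays, the exception being GD9.0 replicate 1. Cdt1 rose by 0.33 ± 0.05 and Pola1 by 0.32 ± 0.06, Orc1 and Pold2 fell by 0.35 and 0.31 on the log2 scale, and Pcna did not pass (0.11 ± 0.04). Of 49 mitosis and spindle genes 5 rose and 9 fell, and the counts were 2 and 17 with each array centred and 3 and 5 in the fit of 12 arrays. Kif20b, a kinesin of cell division, fell by 0.71 on the log2 scale in 2 of 4 probe sets. Anln, anillin, fell by 0.43 and Aurka by 0.30 on that scale, and Cenpi rose by 0.33 ± 0.05. Of 29 apoptosis genes 11 rose and 3 fell, with 7 higher after repeated quantile normalization, 5 in the fit of 12 arrays, and 5 lower with each array centred. Bcl2, a survival gene, rose by 0.62 ± 0.08 (2 of 5 probe sets), Pmaip1 by 0.59 ± 0.07, and Casp8, the initiator caspase of death receptors, fell by 1.04 and Bmf, a death-promoting relative of Bcl2, by 0.51 on the log2 scale.

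Metabolic genes split by pathway. Of 34 sterol and fatty acid synthesis genes 15 (44.1%) rose and 4 fell, with a median of 0.18. Srebf2 had levels of 2.83, 2.74, 2.70 and 2.87 at GD9.0 and 3.82, 3.82, 3.64 and 3.85 at GD9.5, the desaturase gene Fads2 rose by 0.98 ± 0.06 and Tm7sf2, a sterol reductase, by 0.85 ± 0.07, while the elongase genes Elovl5 and Elovl1 fell by 0.35 and 0.33 on the log2 scale. Of 34 glycolysis and hypoxia genes 4 rose and 18 (52.9%) fell, with a median of -0.26. The glucose transporter gene Slc2a3 had levels of 10.66, 10.63, 10.56 and 10.62 at GD9.0 and 9.34, 9.37, 9.33 and 9.33 at GD9.5, and Ldhb, the lactate dehydrogenase subunit of aerobic tissues, rose by 0.98 ± 0.06 in all 4 probe sets. Of 34 folate, one-carbon and serine genes 4 rose and 12 (35.3%) fell, with 6 lower in the fit of 12 arrays. The purine synthesis gene Gart and Shmt1 fell by 0.49 and 0.39 on the log2 scale, and Ggh, which trims folate chains, rose by 0.69 ± 0.06. The folate receptor gene Folr1 (0.49 ± 0.14) and Fpgs (-0.48 ± 0.12) lost their calls in the fit of 12 arrays, Folr1 also without 1 array. Of 34 amino acid transport and ATF4 response genes 7 rose and 5 fell, 3 and 3 in the fit of 12 arrays and 6 and 7 with each array centred, led by the transporter genes Slc36a4 (1.51 ± 0.14) and Slc38a10 (0.59 ± 0.07) and, downwards besides Slc7a3, Eif4ebp1 (-0.52 ± 0.07).

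Of 75 mitochondrial ribosomal protein genes 32 (42.7%) fell and 2 rose, with a median of -0.13, and 19 fell in the fit of 12 arrays. Mrps25 had levels of 7.03, 7.03, 7.11 and 7.06 at GD9.0 and 6.33, 6.47, 6.38 and 6.47 at GD9.5, a small but separate fall (-0.65 ± 0.05). Mrpl39 and Mrps18b fell by 0.49 and 0.45 on the log2 scale, and Mrpl47 by 0.46 in 1 of 3 probe sets, with 0.03 as the mean of its probe sets. Mrpl54 was at 0.19 ± 0.06, lost when arrays were centred, in the fit of 12 arrays and without 1 array. Of 45 cytosolic ribosomal protein genes 4 fell and 1 rose, while 11 fell and 0 rose with each array centred, and 2 fell and 0 rose in the fit of 12 arrays. Rps9 fell by 0.27 on the log2 scale, Rpl12 was at 0.26 ± 0.07, lost when arrays were centred, in the fit of 12 arrays and without 1 array, and Rpl41 did not pass (12.29 and 12.39). Of 47 proteasome genes 11 (23.4%) fell and 3 rose, but the number lower ranged from 4 in the fit of 12 arrays to 27 with each array centred, and it was 6 or 7 without any 1 of 5 arrays (GD9.0 replicates 1 and 3, GD9.5 replicates 1, 2 and 4). Psmd13, a lid subunit, stood out upwards with levels of 5.23, 5.04, 5.28 and 5.21 at GD9.0 and 6.17, 6.19, 6.28 and 6.17 at GD9.5 (2 of 4 probe sets), and the assembly chaperone genes Psmg1 and Psmg3 fell by 0.38 and 0.36 on the log2 scale. Of 79 oxidative phosphorylation genes 11 rose and 8 fell. These shares were near those over all genes and below those over genes above the background at either stage. The number higher was 18 in the fit of genes above the background and 24 with an intensity trend. With each array centred 8 rose and 12 fell, and in the fit of 12 arrays 4 fell. Ndufa12 rose by 0.58 ± 0.05, which became -0.03 without the probe sets shared between transcripts, and Atp5l by 0.41 ± 0.05, while Ndufv3 and Ndufa8 fell by 0.37 and 0.34 on the log2 scale.

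Of 25 measured neural crest genes 11 (44.0%) fell, 5 (20%) rose and 9 did not pass, with a median of -0.16, and 3 rose in the fit of 12 arrays. Sox10, the factor of migrating crest and glia, had levels of 3.78, 3.70, 3.67 and 3.74 at GD9.0 and 3.03, 3.02, 2.59 and 2.75 at GD9.5 (1 of 3 probe sets). Cdh6, a cadherin of crest before it leaves, fell by 1.03 on the log2 scale, and Cdh19, a cadherin of crest-derived glia, ended under the background, at least 1.8-fold lower. Ednrb, an endothelin receptor gene of the pigment lineage, rose by 0.90 ± 0.06, and Myb was at 0.58 ± 0.10, lost in the fit of 12 arrays.

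Adhesion, guidance and cilium genes were described in 6 lists. Of 21 Eph receptors and ephrins 7 (33.3%) rose and 2 fell, with 4 higher in the fit of 12 arrays. Epha3 had levels of 2.68, 2.88, 2.79 and 2.51 at GD9.0 and 5.55, 5.49, 5.42 and 5.63 at GD9.5, a change of 2.81 ± 0.10 in 3 of 4 probe sets. Epha5 rose by 1.25 ± 0.09 and the ligand gene Efna2 by 0.70 ± 0.06. Epha4 fell by 0.30 on the log2 scale in 3 of 5 probe sets. Of 50 semaphorin, slit and netrin genes 13 rose and 5 fell, with 5 and 3 in the fit of 12 arrays and 8 lower with each array centred. Dcc, the netrin receptor, rose by 1.13 ± 0.07 and Sema4c by 0.89 ± 0.15. Nrp2, a semaphorin co-receptor gene, fell by 0.97 and Sema3a by 0.43 on the log2 scale, as did Rgmb by 0.97 in 1 of 6 probe sets, and Nrp1 was at -0.42 ± 0.10, lost in the fit of 12 arrays. Of 29 cadherins and protocadherins 7 rose and 3 fell, against 6 and 6 with each array centred. Pcdh19 had levels of 4.71, 4.95, 5.17 and 4.98 at GD9.0 and 6.13, 6.08, 6.27 and 6.13 at GD9.5, Fat3 and Fat4 rose by 1.06 ± 0.09 and 1.07 ± 0.10, and Cdh1, the epithelial cadherin, fell by 0.93 on the log2 scale. Of 49 planar polarity and closure genes 16 (32.7%) rose and 4 fell, with 9 higher in the fit of 12 arrays and 9 with the mean of each gene's probe sets. With each array centred 12 rose and 8 fell. Celsr2 (0.87 ± 0.07) and Ankrd6 (0.60 ± 0.05) rose most. Prkcz, an atypical protein kinase C of the apical side (-0.54 ± 0.14, overlapping arrays), and Lmo7 (-0.76 ± 0.11) lost their calls in the fit of 12 arrays. Of 55 collagens, laminins and integrins 15 (27.3%) rose and 4 fell, with 9 higher in the fit of 12 arrays, and 11 rose and 7 fell with each array centred. Itgb8, an integrin of neuroepithelium, rose by 1.00 ± 0.06, Col1a2 by 0.73 ± 0.06 and Nid1 by 0.60 ± 0.07. The laminin genes Lama5 (2 of 3 probe sets) and Lamb1 fell by 0.74 and 0.72 on the log2 scale. Of 54 primary cilium genes 7 rose and 3 fell, shares below those over all genes. The counts were 5 and 9 with each array centred, 5 and 7 after repeated quantile normalization and 2 and 1 in the fit of 12 arrays. Wdr35 (0.52 ± 0.08) and Ift43 (-0.36 ± 0.06) led each direction.

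Imprinted genes split, with 9 of 35 (25.7%) higher and 5 lower. Plagl1, a zinc finger gene that acts on other imprinted genes, had levels of 8.11, 8.21, 8.24 and 8.22 at GD9.0 and 9.58, 9.49, 9.63 and 9.63 at GD9.5, and Dlk1 rose by 0.79 ± 0.09 (1 of 2 probe sets). Phlda2, known from placental growth, fell by 1.80 on the log2 scale, Magel2 by 0.62 and Peg3 by 0.43, and Peg12 was at 0.75 ± 0.09, lost in the fit of 12 arrays. Stress genes split too, with 8 of 31 immediate early and heat shock genes higher and 9 lower, 5 and 5 in the fit of 12 arrays. The larger direction turned with the replicate number as a block. It also turned without GD9.0 replicate 1 or 4 or GD9.5 replicate 1, 3 or 4. Hspa1b, an inducible Hsp70, fell by 1.32 on the log2 scale in all 3 probe sets, Ccn1 rose by 0.89 ± 0.12, and Socs3 was at 0.63 ± 0.12, lost in the fit of 12 arrays.

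Most listed markers of heart, yolk sac and surface ectoderm fell. Of 34 cardiac and smooth muscle genes 22 (64.7%) fell and none rose, with 0 higher at an unadjusted p under 0.05 in limma, and the median was -0.40. Actc1, cardiac actin, had levels of 6.31, 6.35, 6.45 and 6.45 at GD9.0 and 2.20, 2.05, 1.98 and 2.45 at GD9.5, a fall of 4.22 on the log2 scale. The atrial light chain gene Myl7 had levels of 5.35, 4.99, 5.20 and 5.07 at GD9.0 and 1.37, 1.44, 1.60 and 1.63 at GD9.5, so every GD9.5 array lay near the background. Myl2 and Myl4 ended under it, at least 4.4-fold and 3.4-fold lower. Acta2, smooth muscle actin, fell by 1.90 on the log2 scale in 1 of 3 probe sets, and without the probe sets shared between transcripts it stood at 0.17. Actc1 and Myl7 are printed because they fell together and each promoter holds a CArG box, the site of serum response factor, in capitals, from base -47 to -38 and from -61 to -52:
Actc1, GRCm38.p6 chr2:114052876-114053125, minus strand: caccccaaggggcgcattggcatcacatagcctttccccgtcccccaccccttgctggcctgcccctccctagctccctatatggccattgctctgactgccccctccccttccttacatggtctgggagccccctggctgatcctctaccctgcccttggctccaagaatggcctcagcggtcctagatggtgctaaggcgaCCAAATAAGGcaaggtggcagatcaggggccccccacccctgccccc
Myl7, GRCm38.p6 chr11:5898783-5899032, minus strand: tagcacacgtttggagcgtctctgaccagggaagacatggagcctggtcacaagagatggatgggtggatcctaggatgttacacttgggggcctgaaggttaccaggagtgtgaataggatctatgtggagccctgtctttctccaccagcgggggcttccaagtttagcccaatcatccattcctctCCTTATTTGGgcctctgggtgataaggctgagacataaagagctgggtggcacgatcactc
A CArG box occurred in 1.40% of 27025 promoters (378) and in 2 of the 19 looked at here. TATAAA was in 4 of the 19 and in 13% of all promoters.

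Of 35 yolk sac and endoderm genes 19 (54.3%) fell and none rose, with 0 higher at an unadjusted p under 0.05 in limma, and the median was -0.31. With the replicate number as a block 19 fell and 1 rose. Afp, alpha-fetoprotein of yolk sac, had levels of 6.68, 6.84, 6.83 and 6.80 at GD9.0 and 1.66, 1.25, 1.54 and 1.67 at GD9.5, the largest fall of all genes (-5.26 ± 0.09, 4 of 5 probe sets). Ttr, the thyroxine carrier, fell by 4.64 and Apoa1, an apolipoprotein, by 1.64 on the log2 scale in 4 of 4 probe sets each. Of 32 surface ectoderm genes 19 (59.4%) fell and 1 rose, with a median of -0.34. The simple keratin genes Krt8 and Krt18 fell by 1.00 and 1.07 and the protease inhibitor gene Spint1 by 0.98 on the log2 scale. Krt15, a keratin of basal epithelium, had levels of 1.70, 1.73, 1.99 and 1.97 at GD9.0 and 2.48, 2.41, 2.96 and 2.89 at GD9.5, the member that rose. Among the 12 largest falls were also Car4, a membrane carbonic anhydrase (-2.22 ± 0.07), and Wfdc2, a secreted epithelial protein (-2.0 ± 0.08).

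Blood genes were described in 3 lists, of which the erythroid one held the largest share of rises. Of 26 erythroid genes 13 (50%) rose and 1 fell, with a median of 0.24, and 7 rose in the fit of 12 arrays. The embryonic globin gene Hbb-bh1 had levels of 11.25, 11.33, 11.33 and 11.37 at GD9.0 and 12.04, 11.95, 12.09 and 12.10 at GD9.5. Slc4a1, the anion exchanger of red cells, rose by 1.44 ± 0.10 (2 of 3 probe sets) and Alas2, of haem synthesis, by 0.83 ± 0.14, while Car2 fell by 0.20 on the log2 scale. Of 16 megakaryocyte and platelet genes 5 (31.2%) rose and none fell, with 0 lower at an unadjusted p under 0.05 in limma. Pf4, platelet factor 4, had levels of 2.59, 2.26, 2.17 and 2.24 at GD9.0 and 5.40, 4.81, 5.20 and 5.14 at GD9.5, with no overlap (2.82 ± 0.14). Clec1b rose by 0.93 ± 0.05 and Tubb1, the platelet tubulin, by 0.74 ± 0.09, but Itga2b, which defines the lineage, did not pass (3.26 and 3.28), nor did Rap1b (0.05 ± 0.04). Of 26 macrophage and leukocyte genes 6 rose and 1 fell, with 3 higher among genes above the background. Coro1a rose by 1.14 ± 0.16 and Csf1r, the macrophage growth factor receptor, by 0.51 ± 0.08 (1 of 3 probe sets), and Adgre1, with a mean of 1.45 and then 1.25 at the background, was called lower, a call lost in the fit of 12 arrays, with the replicate number as a block and without 1 array. Of 31 endothelial genes 2 rose and 8 (25.8%) fell, although their median was 0.05. Ramp2 and Icam2 fell by 0.63 and 0.55 on the log2 scale, Cd34 rose by 0.63 ± 0.10, and Cldn5 was at 0.44 ± 0.10, lost in the fit of 12 arrays.

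Of 38 mesoderm and mesenchyme genes 6 rose and 7 fell, with 12 lower when arrays were centred. Six2 rose by 0.59 ± 0.10, Prrx2 fell by 0.49 on the log2 scale, and Tbx1 ended under the background, at least 1.5-fold lower. Of 16 decidua and placenta genes 1 rose and 2 fell. The riser, Prl8a2, a prolactin-like hormone of the decidua, had levels of 4.27, 4.61, 4.6 and 4.6 at GD9.0 and 5.61, 5.54, 5.79 and 5.63 at GD9.5, with GD9.0 replicate 1 below the other 3. Sex-linked genes differed as well, and sex was not labelled. Xist, the transcript that silences an X chromosome in female cells, had levels of 8.61, 8.70, 8.53 and 8.60 at GD9.0 and 9.14, 9.24, 9.13 and 9.12 at GD9.5, and the Y-linked gene Uty had levels of 3.78, 4.01, 3.76 and 4.03 at GD9.0 and 3.28, 3.28, 3.31 and 3.40 at GD9.5 (2 of 4 probe sets), with Eif2s3y at -0.43 ± 0.06, lost in the fit of 12 arrays. Of 618 X-linked genes 98 (15.9%) rose and 75 (12.1%) fell. Dcx, Eras, Dusp9, Pcdh19, Mbnl3 and Alas2 are X-linked, and the part of the embryos' sex in their changes was not tested.

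Some messages stayed level. The brightest genes that did not pass and changed by less than 0.1 were Eef1a1, a translation elongation factor (12.35 and 12.31), Rpl41, Tpt1 (12.28 and 12.32), Rps29 (12.14 and 12.16), Tmsb10, an actin-binding thymosin (12.08 and 12.10), and Rpl7a (11.99 and 11.94). Without the probe sets shared between transcripts Rpl41 stood at -0.17.

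The change over this interval was compared with that over the interval before, GD9.0 minus GD8.5, by the difference of both changes in the same fit. Both use the GD9.0 arrays, so a deviation of those arrays enters them with opposite signs. The difference passed for 2118 genes (11.6%), more positive in the later interval for 1268 (6.97%) and more negative for 850 (4.67%). Without GD8.5 replicate 3 or 4 it passed for 1373 or 1403, and in the fit of 12 arrays for 1089. The largest difference belonged to Prl8a2, at -4.95 ± 0.10 in the first interval and 1.12 ± 0.08 in the second, a difference of 6.07 ± 0.16 (adjusted p = 1.06e-08). Dusp9, a phosphatase that shuts off ERK signalling, turned as well, from -1.69 ± 0.12 to 1.72 ± 0.09 (3.42 ± 0.18). Hoxb5os, an antisense transcript of the Hoxb cluster, Ankrd1, a heart ankyrin gene, Srgn, a proteoglycan gene of blood cells, and A2m, a protease inhibitor, changed by -3.77 ± 0.14, -4.16 ± 0.10, -3.40 ± 0.12 and -3.71 ± 0.08 in the first interval. In the second interval Ankrd1 fell further to under the background, at least 1.2-fold lower, and the other 3 did not pass, at -0.03 ± 0.11, 0.21 ± 0.10 and -0.14 ± 0.07. Their differences between the intervals were 3.74 ± 0.21, 3.63 ± 0.15, 3.61 ± 0.19 and 3.57 ± 0.13.

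Among the genes with a more negative second interval Afp fell in both, by 1.96 and then by 5.26 on the log2 scale, a difference of -3.29 ± 0.17 (adjusted p = 9.5e-07). Dmrta1, a DM domain factor of the forebrain, stood at 1.59 ± 0.16 in the first interval and -0.92 ± 0.13 in the second, with GD9.0 replicate 1 lower than the other GD9.0 arrays. Rnf152, a ubiquitin ligase gene, stood at 1.67 ± 0.13 and -0.79 ± 0.11, Filip1, a filamin partner, at 2.10 ± 0.18 and -0.31 ± 0.15, which did not pass in the second, Wfdc2 at 0.40 ± 0.10 and -2.0 ± 0.08, and Csn3, a casein gene, at 0.95 ± 0.10 and -1.34 ± 0.09. So 4 of these 6 had a positive first change and a fall in the second, and their differences ranged from -2.51 to -2.30 on the log2 scale.

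**Figure D5:**
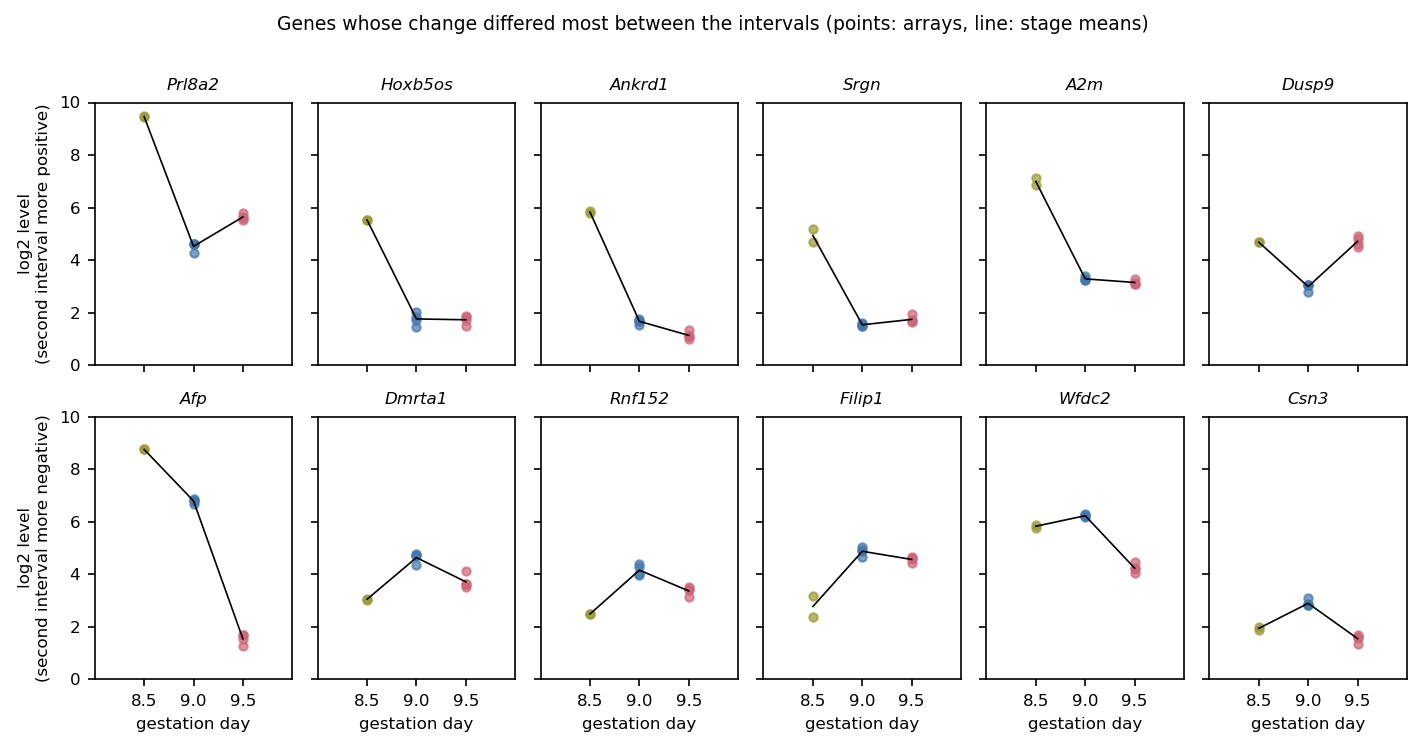
Log2 level in each array (points) and stage means (line) at gestation days 8.5, 9.0 and 9.5 for the 6 genes whose change was most positive (top) and the 6 whose change was most negative (bottom) in the second interval relative to the first. Prl8a2 falls by 4.95 and then stands 1.12 higher, and Afp falls by 1.96 and then by 5.26.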

How the data were processed

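Total RNA of micro-dissected neural tubes was measured on Affymetrix Mouse Genome 430 2.0 arrays. The authors deposited 10 arrays as log2 values, which were used as given, and GD8.5 replicates 1 and 2 as linear intensity values, which entered only the fit of all 12 arrays. Expression Console 1.2.1 of Affymetrix, GCRMA and RMA stand in the submitters' processing notes, which do not say which of them made which column. The number of arrays, 2 at GD8.5 and 4 at each later stage, limits the precision. The median SD of a gene above the background between arrays of 1 stage was 0.098 at GD9.0 and 0.095 at GD9.5.

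Of 45037 probe sets that are no controls, 34945 named 1 gene in the platform annotation, 932 several and 9160 none. Each gene took its probe set with the highest mean. The model (limma 3.58.1, R 4.3.3) had a mean per stage and no covariate, with 7 residual degrees of freedom, a prior of 3.86 and Benjamini-Hochberg adjustment over 18193 genes. In simulated data over 18193 genes for the GD9.5 and GD9.0 comparison, with 50 changed genes per fold, 32% of 1.2-fold, 84% of 1.5-fold and 100% of 2-fold changes were recovered, with 7 false calls. Far fewer genes were changed there than were called here. The adjusted threshold depends on that share, so these recoveries need not hold for the data. A stage mean at or under 1.42 makes a fold a bound against that level, computed from stage means.

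The 54 lists (1914 of 2064 members measured, 89 genes in more than 1 list) and the named genes were chosen with earlier results of these data known. They carry no test of their own, and their shares are set beside those over all genes. Named were the 12 largest rises and falls with arrays that do not overlap, up to 4 called members per direction and up to 2 others per list, 6 differences between intervals per direction and 6 bright constant genes. Genes with probe sets called in opposite directions (103) were not named. Of 242 named genes called, 159 had every probe set called the same way, 99 of them with 1 probe set. The other 83 had several probe sets of which not all were called. The number called is not given beside each of these genes. The microRNA hosts were looked up after the values had been seen. Alternatives were the scaling, a further quantile normalization, a background filter, other probe set choices, an intensity trend, array weights, the replicate number as a block, other sets of arrays and leaving out each array. Sequences are from RefSeq tables (GRCm38.p6), and the build behind the array annotation was not given in these sources.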

Additional observations from a re-analysis of the deposited data

Results flagged for a closer look

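Single arrays stood apart from the other 3 of their stage for some of the named genes by Dixon's criterion for 4 values at the 95% level, which divides the gap to the nearest array by the whole range. Of 538 stage groups of 4 arrays, 39 met it, and chance alone gives about 1 in 20 groups. Each value below is the far array's log2 level, followed by the range of the other 3.

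GD9.0 replicate 1 was the far array for Bcl2 (4.24 against 3.92 to 3.96), C130071C03Rik (2.12 against 1.83 to 1.87), Casp8 (4.70 against 4.44 to 4.47), Ctnnb1 (10.87 against 10.84 to 10.84), Dll3 (4.77 against 4.39 to 4.42), Dmrta1 (4.34 against 4.69 to 4.75), Dusp9 (2.78 against 3.05 to 3.07), Prl8a2 (4.27 against 4.6 to 4.61) and Ptbp1 (8.50 against 8.56 to 8.56). GD9.0 replicate 2 was the far array for Nhlh2 (2.11 against 2.24 to 2.26), Olig3 (1.66 against 1.87 to 1.88) and Pou3f3 (5.08 against 5.21 to 5.23). GD9.0 replicate 3 was the far array for Chgb (1.48 against 1.27 to 1.28), Col1a2 (7.07 against 6.89 to 6.91), Csn3 (3.08 against 2.81 to 2.84), Nkx2-9 (4.25 against 4.47 to 4.51), Pold2 (6.04 against 5.92 to 5.93), Prdm16 (2.94 against 2.44 to 2.45) and St18 (1.26 against 1.39 to 1.40). GD9.0 replicate 4 was the far array for Ggh (3.88 against 3.93 to 3.94). GD9.5 replicate 1 was the far array for Cdh6 (4.79 against 4.99 to 5.02), Cdk4 (9.19 against 9.28 to 9.29) and Fat3 (4.85 against 4.96 to 4.98). GD9.5 replicate 2 was the far array for Rbpms (4.72 against 4.96 to 5.01), Xist (9.24 against 9.12 to 9.14) and Zic2 (3.92 against 4.08 to 4.11). GD9.5 replicate 3 was the far array for Bmp6 (2.69 against 2.26 to 2.32), Dll3 (5.26 against 5.56 to 5.62), Gfra1 (2.38 against 2.59 to 2.63), Peg3 (8.54 against 8.48 to 8.49), Psmd13 (6.28 against 6.17 to 6.19), Six2 (3.01 against 2.73 to 2.75), Slc36a4 (4.71 against 4.51 to 4.54) and Srebf2 (3.64 against 3.82 to 3.85). GD9.5 replicate 4 was the far array for Clec1b (5.15 against 5.24 to 5.24), Eif2s3y (4.66 against 4.47 to 4.49), Id2 (8.84 against 8.76 to 8.77), Mir124a-1hg (1.10 against 1.44 to 1.5) and Slc17a6 (2.64 against 2.41 to 2.44).

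Probe sets with no gene in the annotation also moved. Of 9160 such probe sets 763 (8.33%) were called, 233 upwards and 530 downwards, beside 17% of all 45037 probe sets. They enter none of the gene counts.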

How the results depend on the processing

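Over 20 alternatives, 5244 of 5372 values of named genes kept their direction and their side of the threshold. Of 242 named genes called, 217 kept the call in every alternative that gave a value for them, leaving out the fit of all 12 arrays. With that fit included 201 kept it. An alternative in which a gene had no value was not counted for that gene. The fit of all 12 arrays gave 2295 called genes (1259 higher and 1036 lower, against 2561 and 1868), 3293 called probe sets (against 7667) and 1089 differences between intervals (against 2118). For GD9.5 minus GD9.0 the added GD8.5 arrays enter through the normalization and the shared spread, so a call lost there can come from the spread at GD8.5. The 63 list counts of at least 5 gave 1260 values, of which 61 moved by over 1.5 times, 30 of them in that fit. The 45 smaller counts gave 900 values, of which 50 moved by over 1.5 times and at least 2 genes, 14 of them with each array centred. Centring turned the larger direction of 8 of 54 lists. Centring each array gave 3177 lower genes, and averaging the probe sets of a gene gave 140 genes called at least 2-fold (against 222). Signs turned for 4 named values: without the probe sets shared between transcripts Acta2 stood at 0.17, Ndufa12 at -0.0258 and Rpl41 at -0.17, and with the mean of probe sets Mrpl47 stood at 0.0292. The cause was not tested. Leaving out 1 array gave 3761 to 4274 called genes and 1373 to 1941 differences between intervals, the lowest without GD8.5 replicate 3, and 10 named genes lost their call without 1 array (Adgre1, Folr1, Gli1, Mir155hg, Mrpl54, Nlgn1, Phc1, Rax, Rpl12 and Zic2). With the replicate block 4176 genes were called and Adgre1, Gli1 and Mir155hg lost their calls. Whether equal numbers pair the arrays is not said in the labels. Deviations of same-numbered arrays correlated at -0.027, 0.122, 0.061 and 0.033 over genes, and not every array correlated best with its own number. Values this weak cannot decide whether the arrays are paired. Without a GD8.5 array the remaining one is assumed to vary like the others. The number of arrays limits how small a change can be called. In the simulated data, which had a smaller share of changed genes than was called here, smaller changes were recovered less often.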
